A study of Mus musculus with 3 samples.

Results

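The genes described here are 9 regulators of the endoderm and of its anterior signalling centre at gastrulation, *Cer1*, *Hhex*, *Hesx1*, *Gata4*, *Gata6*, *Sox17*, *Hnf4a*, *Foxa2* and *Foxa1*. They were taken by symbol, and all 9 of 9 were found among the 23421 genes of the deposited table. The study sequenced RNA of mouse embryos at embryonic day 6.5 (E6.5), 1 library each of wild type, tw18/+ and tw18/tw18 embryos. The paper names matings of tw18/+ mice as the source of its in situ hybridization embryos, and names no mating where it describes the sequencing. The tw18 haplotype is a recessive lethal deletion on Chr 17 that removes *Ppp2r1a*, which encodes the scaffold subunit of the phosphatase PP2A, together with its neighbours, so the homozygous embryos lack more than 1 gene. The labels give the strain as 129/SvEv for all 3 samples and name the tissue epiblast, whereas by the study's methods the RNA came from the embryo proper, which is the epiblast with the visceral endoderm around it. The number of embryos in each library is not given in the sources used here. The paper describes the mutant embryos of its E6.5 in situ hybridizations as slightly younger. Whether this holds for the sequenced embryos is not given. It also proposes that non-inbred backgrounds may have made the phenotype vary between embryos. No sample was treated with an agent.

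At this stage the visceral endoderm is an epithelium that wraps the epiblast and the extra-embryonic ectoderm, takes up and secretes nutrients, and signals to the epiblast. A group of its cells at the distal tip moves to the prospective anterior side and becomes the anterior visceral endoderm (AVE), which secretes antagonists of Nodal, BMP and WNT and so restricts the primitive streak to the opposite side. CER1 is one of these secreted antagonists, and HHEX and HESX1 are homeodomain transcription factors used as AVE markers. GATA4, GATA6, SOX17, HNF4A, FOXA1 and FOXA2 are transcription factors of primitive, visceral or definitive endoderm, and FOXA2 also marks the anterior streak and the node.

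Since each genotype was sequenced once, the spread between embryos is unknown, and no difference below has a test or a p-value. Each value is in FPKM, the fragments on a gene scaled to transcript length and library size, and each change is a log2 ratio of FPKM values without a pseudocount. A gene is counted as higher or lower where this ratio was at least 1 in size. In addition, 1 of the compared samples had to reach an FPKM of 1. Both limits follow the study, which filtered over all its samples. The paper prints a finite ratio for *T*, which is listed at 0 in tw18/tw18, so its ratios need not equal those given here. Intervals in brackets are 95% intervals from the approximate number of fragments behind a value, and they cover counting error only. *Ppp2r1a* was lower by a log2 ratio of -3.52 in tw18/tw18 and -0.84 in tw18/+, in the order of the labels. Its FPKM was 146 in wild type, 81.7 in tw18/+ and 12.8 in tw18/tw18. The last value rests on about 596 fragments, so transcript of the deleted gene was not absent from the homozygous library. Where it came from was not tested. None of the 9 genes lies on Chr 17. The depth of tw18/+ and tw18/tw18, read from the steps between low FPKM values, was about 1.37 and 1.35 times that of wild type. As a measure of how far these libraries differ in general, 95% of the 8477 genes with an FPKM between 3 and 150 in all samples had a log2 ratio between -0.70 and 0.70 for tw18/+ against wild type. For tw18/tw18 against wild type the same range was -1.05 to 1.32.

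The sequences upstream of the genes whose levels differed most, *Cer1*, *Hhex* and *Hesx1*, are printed beside those of *Foxa2* and *Hnf4a*, whose log2 ratios were smaller, to show how far apart in composition the genes of this group are. They are 5′ to 3′ on the strand of the gene and end at the RefSeq transcription start (build GRCm38.p6), except that bases in an annotated exon of the same gene were left off, which removed the end of the *Hhex* window and the beginning of the *Hnf4a* window. Capitals mark the letters TAATTA, to which many homeodomain proteins bind, and TGTTTGC or its reverse GCAAACA, a form of the forkhead motif.
Cer1 (chr4:82885152-82885401, minus strand): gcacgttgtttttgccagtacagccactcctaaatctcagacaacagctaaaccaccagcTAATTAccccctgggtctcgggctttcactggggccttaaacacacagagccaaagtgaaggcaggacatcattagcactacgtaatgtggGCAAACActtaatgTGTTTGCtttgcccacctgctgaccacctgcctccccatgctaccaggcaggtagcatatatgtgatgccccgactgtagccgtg
Hhex (chr19:37434591-37434809, plus strand): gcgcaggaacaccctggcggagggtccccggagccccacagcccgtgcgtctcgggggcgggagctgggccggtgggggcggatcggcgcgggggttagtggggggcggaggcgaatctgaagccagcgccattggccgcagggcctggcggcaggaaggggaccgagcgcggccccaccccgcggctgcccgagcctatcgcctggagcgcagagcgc
Hesx1 (chr14:27000112-27000361, plus strand): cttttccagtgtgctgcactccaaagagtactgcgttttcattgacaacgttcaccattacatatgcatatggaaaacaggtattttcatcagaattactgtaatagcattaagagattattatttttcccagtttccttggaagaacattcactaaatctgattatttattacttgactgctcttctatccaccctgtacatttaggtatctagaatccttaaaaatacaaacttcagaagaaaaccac
Foxa2, most upstream start (chr2:148046970-148047219, minus strand): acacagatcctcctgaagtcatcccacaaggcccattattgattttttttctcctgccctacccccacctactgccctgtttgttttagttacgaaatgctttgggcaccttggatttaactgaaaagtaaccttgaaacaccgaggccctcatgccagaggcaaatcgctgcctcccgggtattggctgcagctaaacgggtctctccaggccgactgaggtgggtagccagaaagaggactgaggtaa
Hnf4a, second start (chr2:163546943-163547154, plus strand): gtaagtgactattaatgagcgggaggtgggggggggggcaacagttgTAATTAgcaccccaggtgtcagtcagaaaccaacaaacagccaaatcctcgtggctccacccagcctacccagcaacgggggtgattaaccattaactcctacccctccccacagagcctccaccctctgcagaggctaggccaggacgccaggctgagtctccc

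The RefSeq table matched 6 of the 9 genes with 9 windows of 250 bases in all, and *Sox17*, *Gata4* and *Gata6* had no entry. The windows of the AVE markers had little in common in base composition. The *Hhex* window had a GC content of 76.0% over its whole 250 bases and the *Hesx1* window 34.0%, against 51.6% for *Cer1* and a median of 52.4% over all 32851 windows. Both strands were searched for 6 motifs, the OTX motif TAATCC, the homeodomain motif TAATTA, the letters AGATAA for the zinc finger factors, the forkhead forms TGTTTAC and TGTTTGC and the SOX letters CATTGT, none of which is contained in another. The *Cer1* window held TAATTA at position -190, counted back from the start, and the second forkhead form facing both ways, GCAAACA at -99 and TGTTTGC at -85. Neither the *Hhex* nor the *Hesx1* window held any of the 6. The most upstream *Foxa2* window held none either, while the third *Foxa2* start had AGATAA at -183. The *Foxa1* window had GTAAACA, the reverse of TGTTTAC, at -141. At the first *Hnf4a* start AGATAA stood at -52, and at the second TAATTA stood at -165. The *Cer1* and the second *Hnf4a* window thus share TAATTA. Such letters are frequent: TAATTA was in 4.84% of all windows, TGTTTGC in 4.30%, TGTTTAC in 3.17%, AGATAA in 9.99%, TAATCC in 6.25% and CATTGT in 10.7%. The *Hesx1* start used by RefSeq lies inside the gene as GENCODE M21 annotates it.

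The AVE markers were the members with the largest differences. *Cer1* was present at an FPKM of 46.6 in wild type, 61.3 in tw18/+ and 139.5 in tw18/tw18, from about 1132, 2038 and 4581 fragments. The homozygous sample stood far above both others, and tw18/+ lay a little above wild type. The log2 ratio of tw18/tw18 was 1.58 [1.49 to 1.68] against wild type and 1.19 [1.11 to 1.26] against tw18/+. In the order of all genes by FPKM, *Cer1* moved from place 1593 in wild type and 1204 in tw18/+ to place 402 in tw18/tw18. In bulk RNA such a value does not tell whether more cells held the transcript or each cell held more of it, and this applies to every gene below.

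*Hhex*, also needed later for liver and forebrain formation, reached an FPKM of 7.16 in wild type, 7.79 in tw18/+ and 19.1 in tw18/tw18. Wild type and tw18/+ were alike within counting error, with a log2 ratio of 0.12 [-0.16 to 0.40], and tw18/tw18 was higher than both, by 1.42 [1.17 to 1.66] and 1.29 [1.09 to 1.50]. *Hesx1*, which is also switched on in the anterior neural ectoderm, was the lowest member in wild type with an FPKM of 3.18, from about 48 fragments. It reached 2.78 in tw18/+ and 11.3 in tw18/tw18. Its log2 ratio of 1.83 [1.38 to 2.32] was the largest of the 9, and its interval is the widest because it rests on the fewest fragments. Against tw18/+ the ratio was 2.03 [1.60 to 2.46]. *Hesx1* also took the largest step in the order of levels, from percentile 19.4 in wild type to 52.8 in tw18/tw18 among the genes that reached an FPKM of 1, while *Hhex* moved from 38.9 to 68.7.

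Of the 9 regulators, 3 were higher in tw18/tw18 than in wild type by the threshold and 0 were lower, where 15.1% of all 12917 genes compared were higher and 6.94% were lower. These 3 are the AVE markers, which the study singled out from the same samples, so their direction is not independent evidence. Their log2 ratios stood at percentiles 91.6 (*Cer1*), 90.2 (*Hhex*) and 93.3 (*Hesx1*) of all genes compared, so they lay among the higher genes but not at the extreme. Above *Cer1* there were 1078 genes with a larger ratio. All 3 ratios exceed 1.32, the upper end of the range that held 95% of genes with an FPKM between 3 and 150, a class that *Hesx1* just misses with its 2.78 in tw18/+. Against tw18/+, 5 of 9 were higher and 0 lower, where 14.9% of 12846 genes were higher and 5.65% lower. Both comparisons share the tw18/tw18 sample. Between tw18/+ and wild type 0 of 9 were higher and 0 lower, where 4.70% of 12426 genes were higher and 5.02% lower.

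**Figure D1:**
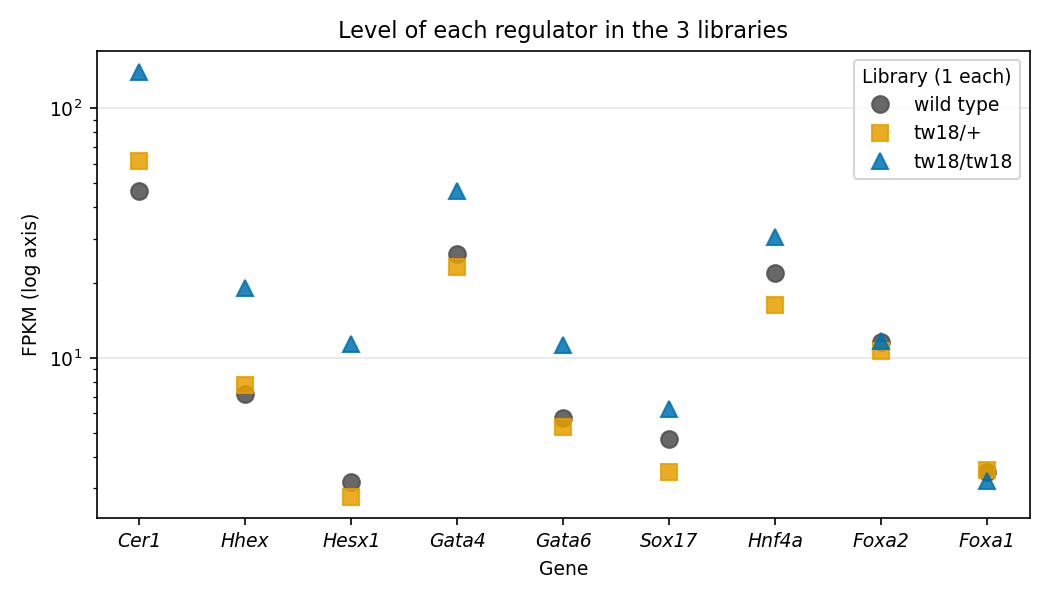
FPKM of each of the 9 regulators in the wild type, tw18/+ and tw18/tw18 libraries (log axis, 1 point per library, no replicates). The tw18/tw18 points of *Cer1* (139.5), *Hhex* (19.1) and *Hesx1* (11.3) stand clear of the other points of the same gene, while the 3 points of *Foxa2* lie between 10.7 and 11.7 and those of *Foxa1* between 3.21 and 3.56.

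The GATA factors, zinc finger proteins that specify and maintain primitive and visceral endoderm, came next. *Gata4* reached an FPKM of 26.0 in wild type, 23.0 in tw18/+ and 46.4 in tw18/tw18. *Gata6* had 5.76, 5.28 and 11.3. Both were higher in tw18/tw18 than in either other library, while the difference between tw18/+ and wild type was small, at a log2 ratio of -0.17 [-0.28 to -0.07] for *Gata4* and -0.13 [-0.36 to 0.11] for *Gata6*. The log2 ratio of tw18/tw18 against wild type was 0.84 [0.74 to 0.93] for *Gata4* and 0.97 [0.77 to 1.18] for *Gata6*, both short of the threshold, and against tw18/+ it was 1.01 [0.92 to 1.10] and 1.10 [0.91 to 1.29], both past it. The interval of *Gata6* against wild type includes the threshold. The level of *Gata4* was 4.51 times that of *Gata6* in wild type, 4.36 times in tw18/+ and 4.11 times in tw18/tw18, so the pair kept nearly the same proportion while both levels differed.

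*Sox17*, an HMG-box factor of visceral and definitive endoderm, reached an FPKM of 4.74 in wild type, 3.50 in tw18/+ and 6.23 in tw18/tw18. *Hnf4a*, a nuclear receptor that drives the transport and secretory programme of the visceral endoderm, had 21.9, 16.3 and 30.5. These 2 genes shared an order in which tw18/+ was lowest, wild type intermediate and tw18/tw18 highest. The log2 ratio of tw18/tw18 against wild type was 0.39 [0.15 to 0.64] for *Sox17* and 0.48 [0.39 to 0.58] for *Hnf4a*. The ratio of tw18/+ against wild type was -0.44 [-0.71 to -0.17] and -0.42 [-0.53 to -0.32], of about the same size and opposite sign. All 4 of these differences exceed counting error, but all lie inside the range of -0.70 to 0.70 that held 95% of genes between tw18/+ and wild type. The largest differences of both genes were those of tw18/tw18 against tw18/+, at 0.83 [0.60 to 1.08] for *Sox17* and 0.90 [0.81 to 1.0] for *Hnf4a*. Both lie inside -0.99 to 1.38, the range that held 95% of genes with an FPKM between 3 and 150 for this comparison. For *Sox17*, 15% of the 50 bp words of its transcripts also occur in a gene on the opposite strand, and whether the counting used strand is not given in the sources used here, so its value is less certain than the others.

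The forkhead factors FOXA1 and FOXA2, which open chromatin for other endoderm factors, differed least. *Foxa2* reached an FPKM of 11.5 in wild type, 10.7 in tw18/+ and 11.7 in tw18/tw18, with a log2 ratio of 0.02 [-0.18 to 0.22] against wild type. *Foxa1* had 3.50, 3.56 and 3.21, with a log2 ratio of -0.13 [-0.43 to 0.18]. The counting intervals of all 3 ratios of both genes include 0. For *Foxa2* the upper bound of 0.22 lies below the lower bound of each AVE marker. The level of *Foxa2* was 3.30 times that of *Foxa1* in wild type, 3.0 times in tw18/+ and 3.65 times in tw18/tw18.

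**Figure D2:**
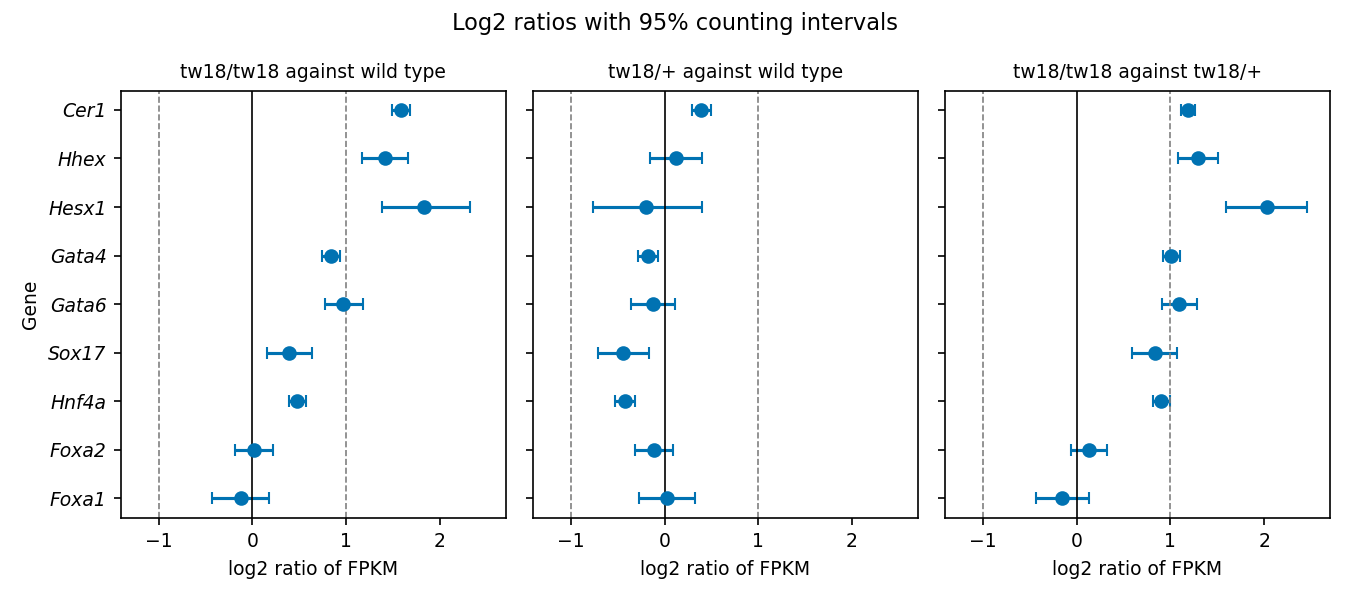
Log2 ratio of FPKM of each regulator for the 3 pairs of libraries, with 95% counting intervals as bars and the threshold of 1 as a dashed line. Against wild type the tw18/tw18 ratios run from 1.83 for *Hesx1* down to -0.13 for *Foxa1*, and the tw18/+ ratios all lie between -0.44 and 0.39.

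Over the 9 regulators the median log2 ratio was 0.84 for tw18/tw18 against wild type and 8 of 9 were above 0, where the median of all genes was -0.01 and 49.6% were above 0. For tw18/tw18 against tw18/+ the median was 1.01 with 8 of 9 above 0, against 0.01 and 50.3% of all genes. For tw18/+ against wild type it was -0.13 with 3 of 9 above 0, against 0.00 and 50.5%. The difference thus sat in the homozygous library in both of its comparisons. The 3 AVE markers had a median of 1.58 and the 6 endoderm transcription factors a median of 0.44, with 0 of these 6 past the threshold against wild type and 2 of 6, the GATA factors, against tw18/+. The summed FPKM of the AVE markers was 57.0 in wild type, 71.9 in tw18/+ and 170.0 in tw18/tw18, and that of the 6 transcription factors was 73.4, 62.4 and 109.4.

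**Figure D3:**
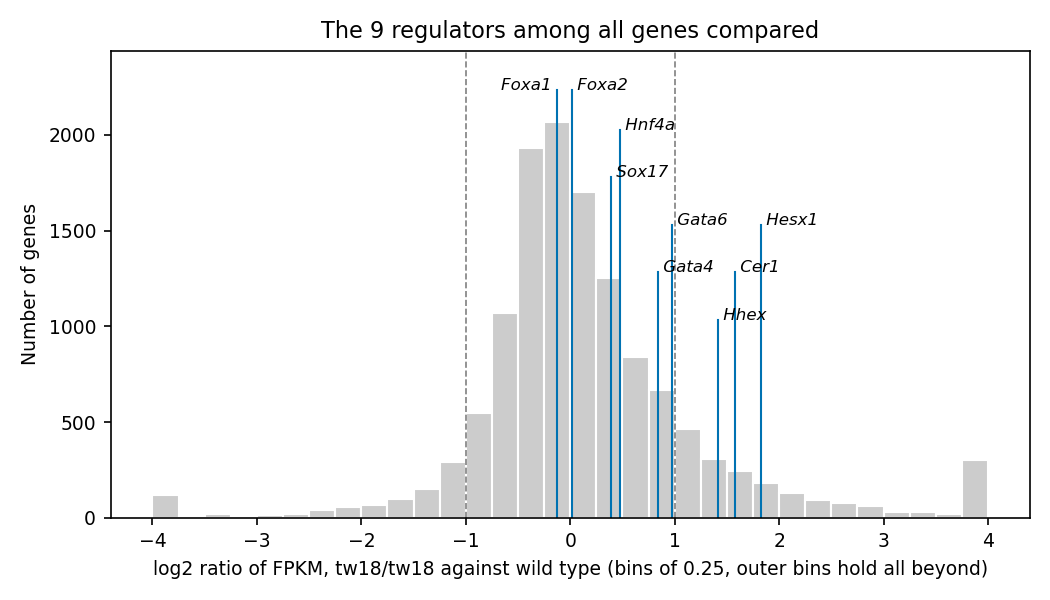
Distribution of the log2 ratio of tw18/tw18 against wild type over all 12917 genes compared, with the 9 regulators marked; the outermost bars also hold the genes beyond the axis. *Cer1*, *Hhex* and *Hesx1* lie beyond 1, and the other 6 lie between -0.13 and 0.97, on the upper side of the centre except *Foxa1*.

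The regulators also changed places among themselves. In wild type the order from highest to lowest FPKM was *Cer1*, *Gata4*, *Hnf4a*, *Foxa2*, *Hhex*, *Gata6*, *Sox17*, *Foxa1* and *Hesx1*. Within counting error the neighbours *Hhex* and *Gata6*, *Gata6* and *Sox17*, and *Foxa1* and *Hesx1* could not be separated there. In tw18/+ the order was the same but for *Foxa1* and *Sox17*, at an FPKM of 3.56 and 3.50 with overlapping intervals. The intervals of *Sox17* and *Hesx1* overlapped too. In tw18/tw18 *Hhex* stood above *Foxa2*, and *Hesx1* had come up beside *Foxa2* and *Gata6*, at 11.7 for *Foxa2*, 11.3 for *Hesx1* and 11.3 for *Gata6*, which are not separated by their intervals. *Foxa1* was then the lowest. The proportion of AVE markers to the general endoderm factors shifted with this. The level of *Cer1* was 4.04 times that of *Foxa2* in wild type, 5.74 times in tw18/+ and 11.9 times in tw18/tw18. The level of *Hesx1* was 0.146 of that of *Hnf4a* in wild type, 0.171 in tw18/+ and 0.371 in tw18/tw18. Among the AVE markers the proportion of *Cer1* to *Hhex* was 6.52, 7.87 and 7.31 in the same libraries, and that of *Cer1* to *Hesx1* was 14.6, 22.0 and 12.3.

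Other genes of the AVE, listed from general knowledge, did not move together. Of 8 genes, 2 were higher and 2 lower in tw18/tw18 than in wild type, with a median log2 ratio of 0.06. The higher ones were *Sfrp5*, a secreted WNT antagonist, at an FPKM of 19.1 in wild type, 19.6 in tw18/+ and 64.4 in tw18/tw18 (log2 ratio 1.75 against wild type), and *Shisa2*, an inhibitor of WNT and FGF receptor maturation, at 8.82, 7.83 and 20.8 (1.24). The lower ones were *Lefty1*, a Nodal antagonist, at 13.3, 12.9 and 6.11 (-1.12), and *Gsc*, a homeobox gene of the AVE and the anterior streak, at 12.0, 6.76 and 2.53 (-2.25). The secreted antagonists therefore went both ways, with *Cer1* and *Sfrp5* higher and *Lefty1* lower, and *Dkk1*, a WNT antagonist, was at 24.3, 21.2 and 23.0 (-0.08). The remaining genes were *Fzd5*, a WNT receptor, at 0.76, *Lhx1*, a LIM homeobox gene, at 0.19 and *Otx2*, a head homeobox gene that the epiblast expresses too, at -0.29. The summed FPKM of the 8 was 215 in wild type, 215 in tw18/+ and 262 in tw18/tw18.

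Of 10 other endoderm transcription factors, 6 reached an FPKM of 1 in wild type or tw18/tw18, and 1 of these was higher and 2 were lower in tw18/tw18 than in wild type. The higher one was *Cebpa*, known from the liver and low here, at an FPKM of 1.32 in wild type, 1.08 in tw18/+ and 2.94 in tw18/tw18 (1.16). The lower ones, *Eomes* at 77.1, 58.0 and 37.0 (-1.06) and *Mixl1* at 33.9, 27.5 and 5.76 (-2.56), are known from the primitive streak as well as from endoderm formation. The other 3 had smaller positive ratios, 0.87 for *Prdm1*, a transcriptional repressor expressed in visceral endoderm and germ cells, 0.40 for *Foxa3* and 0.15 for *Sox7*. *Nr5a2* was at 0.398, 0.20 and 0.746. *Hnf4g* and *Onecut1* were listed at 0 in wild type and tw18/tw18, and *Gata5* was listed at 0 in wild type. *Foxa2*, *Foxa1* and *Foxa3*, the 3 forkhead genes of this kind, all had ratios under the threshold.

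Genes for uptake, transport and secretion in the visceral endoderm give the level of that tissue against which the regulators can be read. All 14 had a value in every library. The levels of the most abundant of them show that visceral endoderm RNA was present in the samples labelled epiblast. The highest were *Apoa1*, an apolipoprotein, at an FPKM of 246 in wild type, 233 in tw18/+ and 337 in tw18/tw18, *Dab2*, an endocytic adaptor, at 179, 179 and 311, and *Apob*, at 131, 142 and 156. Their log2 ratios for tw18/tw18 against wild type were 0.46, 0.80 and 0.25. Of the 14, 13 were above 0, 2 were higher by the threshold and 0 lower, with a median of 0.47. Measured from that median, *Hnf4a* was at 0.01 and *Sox17* at -0.07, *Gata4* and *Gata6* at 0.37 and 0.50, and *Cer1*, *Hhex* and *Hesx1* at 1.11, 0.95 and 1.36. *Foxa2* and *Foxa1* were then at -0.45 and -0.59. The ratios of the AVE markers thus lay above the median of the visceral endoderm genes, those of *Hnf4a* and *Sox17* close to it and those of the forkhead genes below it. The 14 genes themselves spread from -0.83 to 3.27. The lowest ratio was that of *Afp*, at an FPKM of 106 in wild type, 110 in tw18/+ and 59.5 in tw18/tw18. The highest was that of *Apoa2*, at 0.69, 7.17 and 6.71, from only about 4 fragments in wild type. For tw18/+ against wild type the median of the 14 was -0.07.

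Relative to the epiblast the picture is shifted upwards for all 9. The 10 epiblast genes had a median of -0.95, with 0 higher and 5 lower, and summed to an FPKM of 1958 in wild type, 2037 in tw18/+ and 1013 in tw18/tw18. The most abundant were *Dnmt3b*, a DNA methyltransferase, with a log2 ratio of -1.0, *Pou5f1*, the pluripotency factor OCT4, with -1.20, and *Utf1* with -0.53. Measured from that median the regulators lay between 0.82 for *Foxa1* and 2.78 for *Hesx1*. FPKM values are shares of a library, so a lower share of epiblast transcripts leaves more room for those of other cells, and the part of this in the results was not tested.

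**Figure D4:**
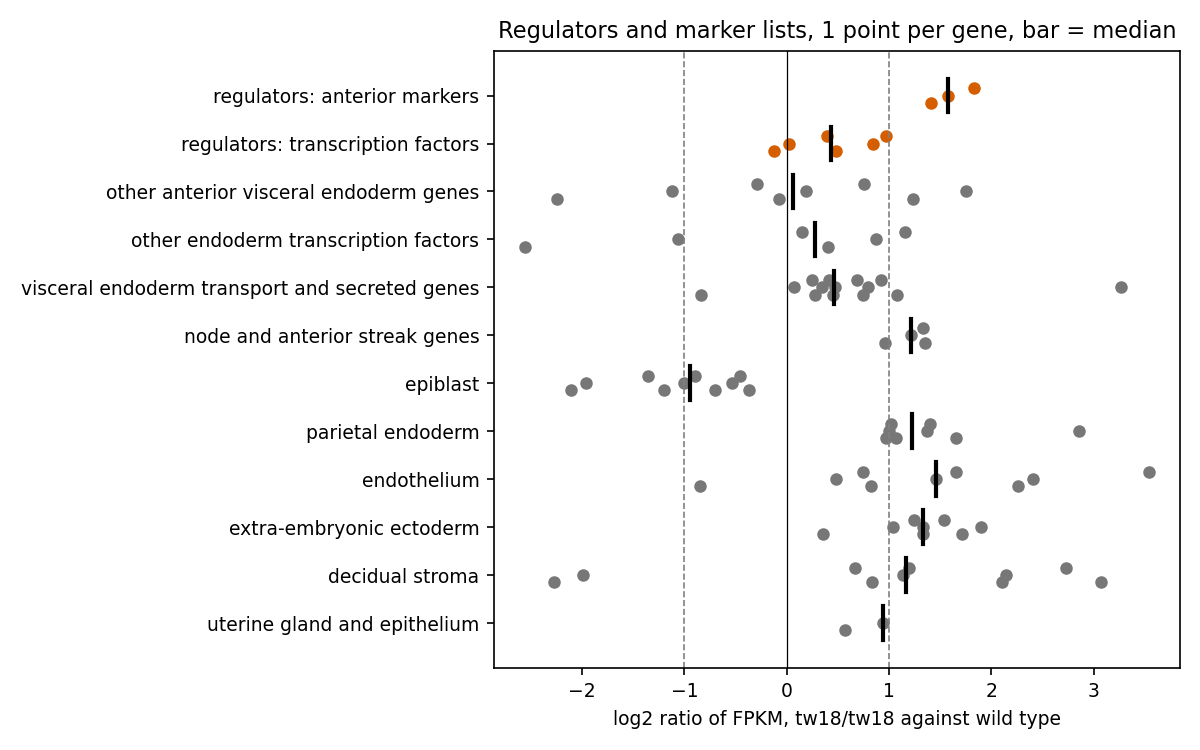
Log2 ratio of FPKM for tw18/tw18 against wild type in the 9 regulators, split into AVE markers and transcription factors (orange), and in 10 lists of other genes (grey), 1 point per gene that reached an FPKM of 1 in wild type or tw18/tw18, and a bar at the median. *T*, listed at 0 in tw18/tw18, and *Lif*, listed at 0 in wild type, count in the medians but have no point. The medians are 1.58 for the AVE markers, 0.47 for the visceral endoderm genes and -0.95 for the epiblast genes.

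Transcripts of the node and anterior streak, where *Foxa2* and *Cer1* are also known, moved unevenly. Of 7 genes, 5 reached an FPKM of 1, and 3 of these were higher and 1 lower in tw18/tw18 than in wild type. The higher ones were *Foxj1*, a gene of ciliated cells, and the BMP antagonists *Chrd* and *Nog*. *Foxj1* was at an FPKM of 2.64 in wild type, 3.54 in tw18/+ and 6.13 in tw18/tw18 (log2 ratio 1.22). *Chrd* was at 1.86, 1.80 and 4.75 (1.35). *Nog* was at 0.98, 1.46 and 2.47 (1.33 [0.66 to 2.08]), from about 23 fragments in wild type, and its interval includes the threshold. *Cxcr4*, short of the threshold, was at 13.2, 12.9 and 25.6 (0.96), and the lower one, *T*, the streak and node gene Brachyury, was at 18.3, 6.16 and listed at 0. *Noto*, a defining gene of the node, was listed at 0 in all 3 libraries and *Shh* in wild type and tw18/tw18. The summed level of the list was 37.0, 26.1 and 39.0.

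Markers of tissues outside the embryo proper had mostly positive log2 ratios for tw18/tw18 against wild type, as the AVE markers did. For tw18/+ against wild type the medians were 0.31 for parietal endoderm, -0.15 for extra-embryonic ectoderm and -0.48 for endothelium. The AVE markers had 0.12 there. Parietal endoderm, which lines the yolk cavity and expresses GATA factors and *Sox17* as well, had 7 of 8 markers higher in tw18/tw18 than in wild type with a median of 1.22, and summed to an FPKM of 343 in wild type, 398 in tw18/+ and 838 in tw18/tw18. Its 3 most abundant genes, *Sparc*, *Col4a1* and *Lamb1*, had log2 ratios of 1.40, 1.0 and 0.97, and *Lamb1* was the marker short of the threshold. Extra-embryonic ectoderm had 7 of 8 higher with a median of 1.33 and sums of 35.8, 38.1 and 87.9, led by *Hand1* (1.90), *Ets2* (0.35) and *Tfap2c* (1.54). Endothelium, where *Hhex* and *Sox17* are also expressed, had 5 of 9 higher with a median of 1.45 and sums of 58.9, 45.4 and 110.0, led by *Cdh5* (0.74), *Egfl7* (0.48) and *Pecam1* (0.83). Whether the endothelial transcripts were embryonic or maternal was not tested.

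Maternal tissue was present to differing degrees. Decidual stroma had 6 of 10 markers higher and 2 lower with a median of 1.17, and summed to 1822 in wild type, 336 in tw18/+ and 938 in tw18/tw18. *Prl8a2*, a decidual prolactin, was at 1504, 155 and 377, *Cryab* at 93.8, 48.6 and 166.6, and *Des* at 45.5, 65.9 and 200.8, so the libraries ranked differently by different decidual genes. Of 7 genes of uterine gland and epithelium 3 reached an FPKM of 1, 1 of them was higher, and the list summed to 3.92, 4.41 and 8.23. *Prss29*, *Prss28* and *Muc1*, the most abundant of these, stayed at or below 3.0. *Wnt7a* and *Calb1* were listed at 0 in all 3 libraries, *Ltf* in wild type and tw18/+, and *Lif* in wild type. For all of these tissues, their part in the levels of the 9 regulators was not tested.

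**Figure D5:**
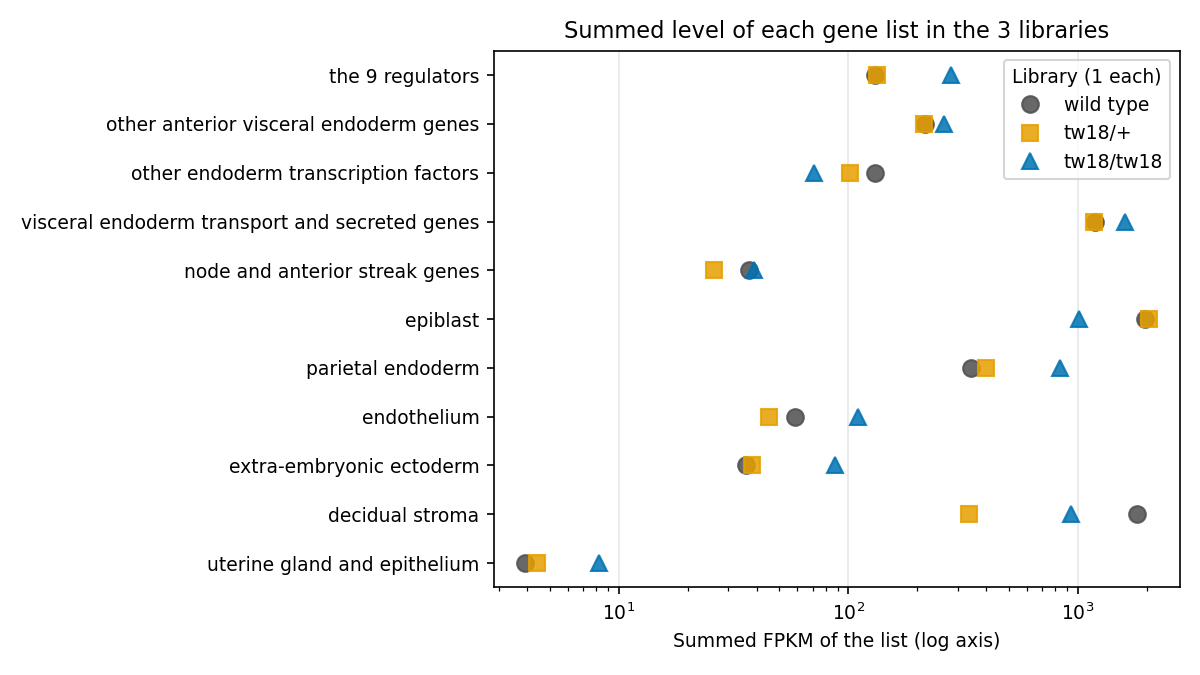
Summed FPKM of the regulators and of each list of other genes in the 3 libraries (log axis). The regulators sum to 130.4 in wild type, 134.2 in tw18/+ and 279.3 in tw18/tw18, beside 343, 398 and 838 for the parietal endoderm and 1958, 2037 and 1013 for the epiblast.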

How the data were processed

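RNA of the embryo proper at E6.5 was sequenced in 50 bp paired-end reads after library preparation with the TotalScript kit, 1 library per genotype. Alignment to mm10 (GRCm38) used TopHat, and the authors calculated FPKM values with Cuffdiff and deposited 1 table of FPKM values, 23421 genes by 3 samples. The submitters' processing notes name TopHat2, Bowtie 1.0.0, Cufflinks 2.2.1 and Cuffdiff. The gene annotation and the library normalization are not given in the sources used here. FPKM is relative to the library, so an abundant transcript lowers the values of the others.

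Genotypes were taken from the labels and the columns matched by name. Ratios, counts and medians were computed in Python 3.11.15 (pandas 2.3.3, numpy 2.4.6, scipy 1.17.1), and plots were drawn in matplotlib 3.10.9. There was no test, since each genotype has 1 sample. The value of 1 fragment was read from the lowest FPKM values of single-transcript genes (84, 196 and 147 values in wild type, tw18/+ and tw18/tw18, of which 78.6% to 85.7% lay within 0.2 of a whole number), allowing 150 bp for fragment length. Fragment numbers use the longest annotated coding transcript and are approximate. Intervals of ratios are exact Clopper-Pearson binomial at 95%, those of levels exact Poisson. They cover counting error only, and PCR copies of a fragment are not independent. Positions and transcripts came from GENCODE M21, and upstream sequences from RefSeq. The calculations were tested on simulated data.

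All 9 regulators are named, together with every gene of the lists of other AVE genes and other endoderm transcription factors and the 3 most abundant genes of each other list. Beyond this rule *Noto*, *Shh*, *Wnt7a*, *Calb1*, *Ltf* and *Lif* are named as genes listed at 0, and *Chrd*, *Nog*, *Afp* and *Apoa2* after their values were seen. The regulators and the lists were chosen with earlier results of these data known. The alternatives were pseudocounts of 0.1 and 1, median centring, equal FPKM sums, tw18/+ as the reference, no filter, thresholds of a log2 ratio of 2 and of 1.5-fold, and ratios relative to the visceral endoderm or epiblast genes. The list of other endoderm transcription factors was first written with 2 more genes, which are not reported here. Antisense partners of *Sox17*, *Gata6* and *Hnf4a*, and other experiments of the study were not analysed here.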

Additional observations from a re-analysis of the deposited data

How the results depend on the processing

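Of the 9 regulators, 3 were higher in tw18/tw18 than in wild type by a log2 ratio of at least 1. The number was 3 with a pseudocount of 0.1 (14.6% of all genes higher), with a pseudocount of 1 (9.50%) and with no filter on low values (24.2%), and 4 with median centring (15.9%), which brought *Gata6* to 1.02. It was 5 with equal FPKM sums, where 19.3% of all genes were higher, 5 with tw18/+ as the reference, 5 with a threshold of 1.5-fold (24.1% of all genes) and 0 with a log2 threshold of 2 (5.76%). The median over the 9 was 1.05 with equal FPKM sums and 1.01 with tw18/+ as the reference, and equal sums shift every ratio of tw18/tw18 against wild type by 0.21. Over 7 alternatives the ratio stayed at 1 or more for *Cer1* (1.11 to 2.53) and *Hesx1* (1.36 to 2.78), and for *Hhex* (0.95 to 2.36) in all but the one relative to the visceral endoderm genes. *Gata4*, *Gata6* and *Hnf4a* stayed positive, from 0.37, 0.50 and 0.01 upwards. *Sox17* and *Foxa2* were negative relative to the visceral endoderm genes, at -0.07 and -0.45, and *Foxa1* was positive with equal FPKM sums and relative to the epiblast genes. No paired analysis was possible because each genotype has 1 sample, and no replicate could be left out. Depth limits *Hesx1* most, with about 48 fragments in wild type.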

Other observations

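The genes whose pattern over the 3 libraries was most like that of each regulator were taken among the 7047 or 7048 other genes that reached an FPKM of 10 in any library, by the distance over the pair of differences of log2(FPKM + 1) from wild type. They rest on 3 libraries and are given as values only. Nearest to *Cer1* were *Hbb-b2*, a beta globin gene, at an FPKM of 27.1 in wild type, 35.2 in tw18/+ and 83.6 in tw18/tw18, and *Cd55*, which encodes a regulator of complement, at 9.75, 12.6 and 31.4. Nearest to *Hhex* were *Pkdcc*, a secreted kinase, at 23.0, 25.4 and 58.5, and *Smoc1*, a matricellular modulator of BMP signalling, at 6.21, 6.77 and 16.3. Nearest to *Hesx1* were *Adamts3*, a secreted protease, at 2.92, 2.48 and 10.9, and *Gatm*, an enzyme of creatine synthesis, at 27.3, 23.8 and 79.0.

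Within a distance of 0.2 of these 3 AVE markers lay 24, 45 and 31 genes, whereas 926 lay within 0.2 of *Foxa2* and 1279 of *Foxa1*. Most genes differ little between libraries, so such numbers fall as the ratios grow and restate their size. *Gata4* and *Gata6*, nearest to *Hkdc1* and *Trim35* and to *Flot1* and *St3gal1*, had 132 and 126 genes within 0.2. *Hnf4a* was nearest to *Itga5* and *Lpar6* with 100 genes, and *Sox17* to *Trak2* and *Auh* with 164. The genes nearest to *Foxa2* were *Dnajc5* and *Vps28* and those nearest to *Foxa1* were *Irf2bp1* and *Cnot7*. No AVE or endoderm regulator of the lists was among these 18 nearest genes. The lists hold only 9, 8 and 10 genes beside the 7047 or 7048 compared, so nothing follows from their absence.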
